A study of Mus musculus with 18 samples.

Results

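Collagens are the main structural proteins of the extracellular matrix, each built from 3 chains wound into a triple helix, and every chain has a gene of its own. Endothelial cells, which line blood vessels and heart chambers, rest on a basement membrane whose collagen network is made of type IV chains, while the fibrillar collagens (types I, III and V among them) form the fibres of the tissue around the vessel and are known chiefly as products of fibroblasts. The chains described here are all genes whose symbol is Col, a number, the letter a and a number. There were 42 of them among the 17513 genes of the heart table and 43 among the 17242 genes of the liver table, 44 in either and 41 in both. Col6a4 and Col6a5 were listed in the liver alone and Col9a1 in the heart alone. By the structure of the protein they were put into 8 classes. These were the type IV network (6 genes in each table), the multiplexins of the basement membrane zone (Col15a1 and Col18a1), the fibrillar chains (11 in each), the fibril-associated chains (9 in heart and 8 in liver), type VI (4 and 6), the short-chain network formers (3 in each), the transmembrane collagens (4 in each) and an anchoring and other class (3 in each).

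The heart libraries were bulk RNA-seq of endothelial cells from wild-type adult male mice at homeostasis. Each of the 4 regions, named Apex, LV, VS or OR in the labels, gave 3 libraries (the table heads the columns taken as OR with OZ, a match that rests on the series design text), and the 12 held between 21590400 and 27720154 counts. The liver libraries came from endothelial cells of adult male mice at homeostasis that carried Ki67-CrexER, Cdh5-DreER and R26-RL-tdT. Ki67-CrexER is a recombinase under the proliferation gene Ki67, Cdh5-DreER a recombinase under an endothelial cadherin gene, and R26-RL-tdT a tdTomato reporter, so the reporter depends on the activity of both drivers. Both liver groups, tdTomato-positive and tdTomato-negative with 3 libraries each, share that genotype, and their libraries held between 23715769 and 26538590 counts. The labels give no animal number, batch or date, so p-values measure only the spread between these libraries, which may be technical. In bulk RNA, fewer cells of a type and less RNA per cell cannot be told apart.

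Endothelial markers were high in every library. Pecam1 lay between 1645 and 2252 CPM (CPM are counts scaled to a common library total) in the 12 heart libraries, and Ptprc, a leukocyte marker, between 0.379 and 1.52 CPM. RNA of other cells was present too. The summed level of 8 cardiomyocyte markers ran from 568 CPM in VS 1 to 2796 CPM in VS 2, and that of 10 fibroblast markers, none of them a collagen, from 478 CPM in VS 1 to 2003 CPM in LV 3. VS 1 stood apart from VS 2 and VS 3, with a chi-square per degree of freedom over genes of 184 and 115, against 29.6 between VS 2 and VS 3. The Apex libraries were uneven too. Apex 1 and Apex 3 were at 122, Apex 1 and Apex 2 at 57.4 and Apex 2 and Apex 3 at 34.7. In the liver, negative 3 stood apart from negative 1 and negative 2, at 248 and 228 against 51.3 between those libraries. Negative 3 is named by its label throughout, and its marker and collagen values lie closer to those of the positive libraries in most of the lists and chains below, so whether the label is right is in question and every mean or fold of the negative group depends on it. The counts of chains, the basement membrane shares and most of the folds named for VS and for the negative group are also given without VS 1 or negative 3.

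Col4a1 and Col4a2 encode the chains of the ubiquitous type IV collagen, whose trimers contain both. They lie head to head on chromosome 8 (Col4a1 at chr8:11198423-11312889 on the minus strand, Col4a2 at chr8:11312805-11449287 on the plus strand, GRCm38.p6, the build also called mm10), so their start sites are shown. The RefSeq promoter table lists a start of Col4a1 at position 11312826, although the annotated extent of the gene reaches further out, to 11312889, and that of Col4a2 at 11312805. The 22 bases from one listed start to the other, in capitals, lie inside the annotated extents of both genes. Their window is chr8:11312801-11312830, printed on the plus strand. Beside it stand the 100 bases upstream of the start of Col3a1, the most abundant fibrillar chain in the heart, at chr1:45311438-45311537 on the plus strand.
Col4a1 and Col4a2 starts: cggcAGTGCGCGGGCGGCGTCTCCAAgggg
Col3a1 upstream: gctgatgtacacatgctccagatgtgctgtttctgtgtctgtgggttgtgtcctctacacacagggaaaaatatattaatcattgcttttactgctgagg
The Col4a1 and Col4a2 window, 30 bases that meet annotated exon, had 80.0% G and C bases. The Col3a1 window, 100 bases outside annotated exon, had 43.0%, so the windows differ in length and kind of region. The Col3a1 value is the lowest among the 38 collagen windows of 100 bases in RefSeq. Their median was 64.5%, against 55.0% over all 32851 windows. Promoters matched by symbol for 33 of the 42 heart chains and 34 of the 43 liver chains. CCAAT, on either strand, was found in 4 of the 38 collagen windows and in 18.9% of all windows, and TATAA, on either strand, in 2 of the 38 and in 10.2%. The Col3a1 window held neither run of letters. The strand setting of the authors' counting is not given in the sources used here, so reads from bases that both type IV genes share cannot be assigned.

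Of the 42 heart chains, 31 passed the filter on low counts, and their levels spanned several orders of magnitude. On the TPM scale, which is corrected for transcript length as well as depth, Col4a1 led with a mean of 639 TPM over the 12 libraries (range 370 to 906) and was the 266th most abundant gene of the table. Col4a2 followed at 339 TPM (range 196 to 464), as the 494th. The other type IV chains, which form the networks of a few specialised basement membranes such as that of the kidney glomerulus, stayed far lower, with means of 0.822 TPM for Col4a4, 0.760 TPM for Col4a3, 0.391 TPM for Col4a5 and 0.139 TPM for Col4a6. Col4a1 was between 629 and 5137 times as abundant as Col4a5 in the 12 libraries. The ratio of Col4a1 to Col4a2 was narrow, from 1.73 to 2.04 with a median of 1.87, although Col4a1 itself varied more than that from library to library.

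The multiplexins, which carry long sugar chains and sit at the outer face of the basement membrane, came next. Col15a1 had a mean of 76.8 TPM (range 37.4 to 117) and Col18a1, the source of the fragment endostatin, 31.1 TPM (range 19.8 to 44.5). Col15a1 exceeded Col18a1 in all 12 libraries, with a median ratio of 2.48 and at most 3.92. The fibrillar chains were led by Col3a1 at 29.4 TPM (range 12.4 to 83.8), Col1a1 at 17.6 TPM (range 6.62 to 48.2) and Col1a2 at 15.7 TPM (range 8.66 to 34.4), the chains of types III and I. The ranges of Col18a1 and Col3a1 overlap, so their order is not resolved by these libraries.

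The type V chains, which set the diameter of type I fibrils, had means of 5.91 TPM for Col5a2, 3.36 TPM for Col5a1 and 3.18 TPM for Col5a3. Type VI collagen forms beaded filaments that tie cells to the matrix, and its chains Col6a1 and Col6a2 stood at 21.2 and 19.1 TPM, whereas their partner Col6a3 had a mean of 0.797 TPM. Col8a1, a short-chain network former of vessel walls and corneal endothelium, reached 14.9 TPM and its partner Col8a2 0.302 TPM. Col28a1 (2.04 TPM), the transmembrane Col13a1 (1.92 TPM), the fibril-associated Col16a1 (1.27 TPM) and Col14a1 (1.19 TPM) followed. The other members past the filter had means from 0.0683 TPM (Col22a1) to 0.432 TPM (Col23a1). The 11 heart chains under the filter were Col2a1, Col6a6, Col7a1, Col9a1, Col9a2, Col10a1, Col11a1, Col17a1, Col19a1, Col24a1 and Col26a1, none with more than 37 counts in a library.

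**Figure D1:**
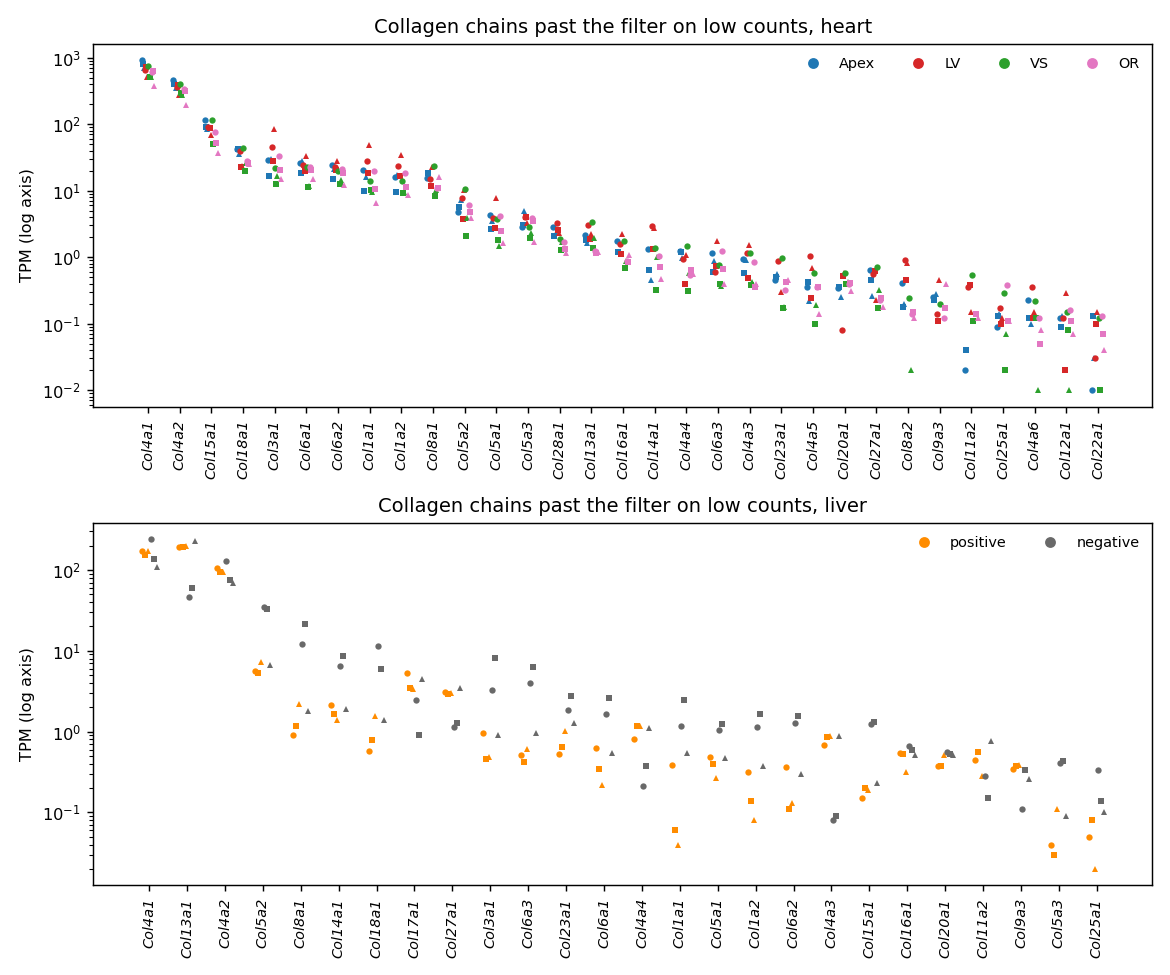
Level of each collagen chain past the filter in each library, on a logarithmic TPM axis, for heart (top) and liver (bottom); each point is 1 library, circles, squares and triangles mark replicates 1, 2 and 3, and values of 0 are not drawn. In the heart Col4a1 and Col4a2 lie above all other chains, and in the liver Col13a1 joins them.

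Chains of the basement membrane, here the type IV chains with Col15a1 and Col18a1, made up most of the collagen transcripts of the heart libraries. Their share of the summed collagen TPM was 90.6% ± 2.00 (SD, n = 3) for Apex, 91.0% ± 1.12 for VS, 88.6% ± 1.57 for OR and 83.7% ± 7.69 for LV. The LV values were 85.9%, 90.1% and 75.2%, and LV 3 was the lowest of the 12 libraries. Without LV 3 the LV mean was 88.0%, and without VS 1 the VS mean was 91.5%. Fibrillar chains made up 10.1% ± 5.59 of the collagen TPM in LV, with 16.3% in LV 3 as the highest single value. Elsewhere they took 4.65% ± 1.31 (Apex), 4.41% ± 0.40 (VS) and 5.74% ± 1.34 (OR). Type VI chains contributed between 2.37% and 5.48% in the 12 libraries.

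**Figure D2:**
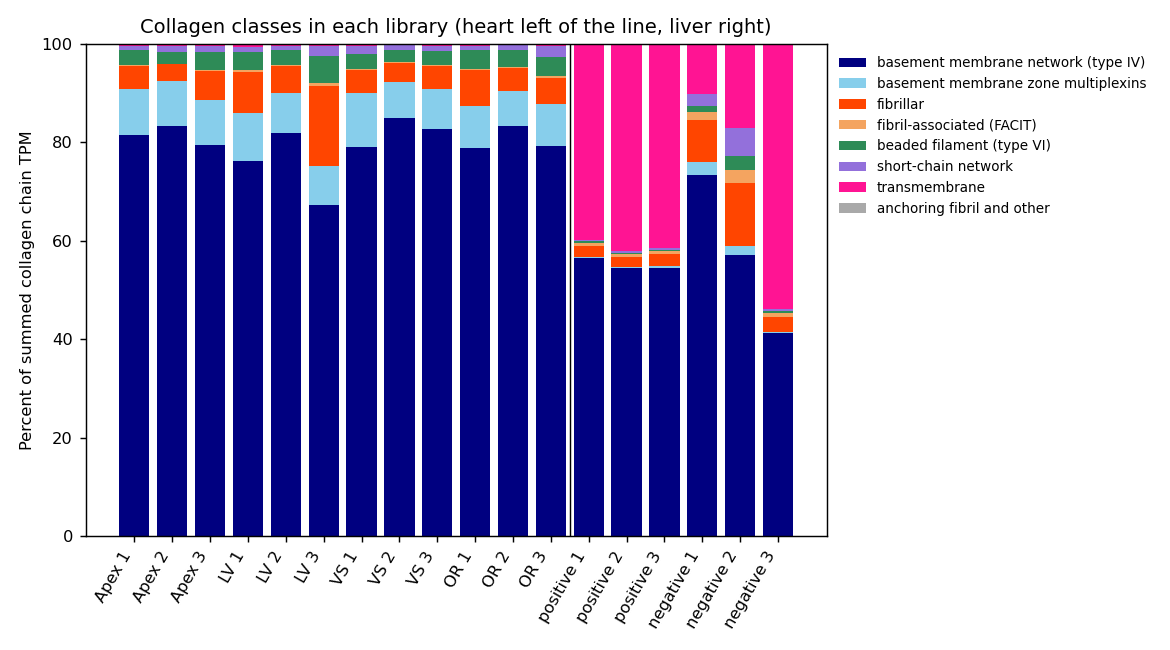
Percent of the summed TPM of all collagen chains that each of the 8 classes took in each library, as stacked bars from 0 to 100. LV 3 has the largest fibrillar share of the heart libraries (16.3%), and liver negative 3 the largest transmembrane share of the liver libraries (53.8%).

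The chain pairs of type IV (Col4a1 and Col4a2) and type I (Col1a1 and Col1a2), and the type I and III chains Col1a2 and Col3a1, varied together over the 12 heart libraries, on the log2 CPM scale. Col4a1 and Col4a2 had a Pearson r of 0.97 and a Spearman rho of 0.94, Col1a1 and Col1a2 an r of 0.97 and a rho of 0.97, and Col1a2 and Col3a1 an r of 0.98 and a rho of 0.91. Each Pearson p was 1e-05, the smallest that 100000 permutations can give, and 3e-05 after Benjamini-Hochberg adjustment over the 9 correlations computed. Without the 2 libraries farthest from the median, r was 0.92, 0.97 and 0.97 for these pairs, and after the mean of each region was removed it was 0.98, 0.97 and 0.96. For Col4a1 and Col1a2, a type IV and a fibrillar chain, no relation was detected, with an r of -0.05 (permutation p = 0.888, adjusted p = 0.997) and a rho of 0.07.

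Col1a2, the fibrillar chain tested for it, moved with the summed fibroblast markers, and for Col4a1 no relation to that sum was detected. Most of the sum was Gsn, with means of 524, 1000, 458 and 770 CPM in Apex, LV, VS and OR. Dcn came next, and correlations with single markers were not computed. Col1a2 and the summed fibroblast markers had an r of 0.90 and a rho of 0.87 (permutation p = 8e-05 for r, adjusted p = 0.00018), with r = 0.82 without LV 1 and LV 3 and 0.87 within regions. For Col4a1 and the same markers r was 0.00 and rho 0.11 (adjusted permutation p = 0.997 for r). Col14a1, which decorates fibrils, had an r of 0.65 with the markers (adjusted permutation p = 0.0351), which within regions was 0.45 (adjusted p = 0.216). Col1a2 and the endothelial marker Pecam1 had an r of -0.17 (adjusted permutation p = 0.778). Col4a1 and Col15a1 had an r of 0.75 and a rho of 0.72 (adjusted permutation p = 0.00828 for r), and r fell to 0.56 without LV 3 and OR 3. Libraries share their total depth in all these values.

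**Figure D3:**
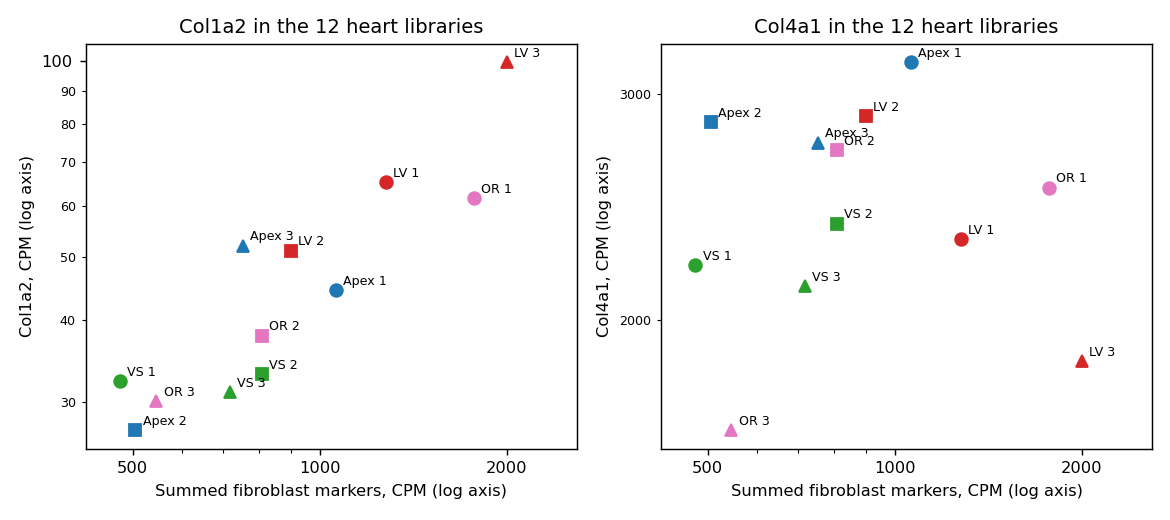
Col1a2 (left) and Col4a1 (right) against the summed level of 10 fibroblast markers in the 12 heart libraries, all in CPM on logarithmic axes. Each point is 1 library, coloured by region, and Gsn is the largest part of the summed level. Col1a2 rises with the markers up to LV 3 (99.5 CPM), whereas LV 3 and OR 3 hold the lowest Col4a1 values.

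The comparison of the 4 heart regions asked whether endothelial cells of different places in the heart differ. For LV against VS, the fibrillar chains Col3a1, Col1a2 and Col1a1, the type VI chain Col6a1, the fibril-associated Col14a1 and the short-chain Col8a2 had the smallest p, all with higher values in LV, but none passed the test after adjustment. Col3a1 was at 135, 92.5 and 259 CPM in LV 1, LV 2 and LV 3, and at 55.0, 47.9 and 57.3 CPM in VS 1, VS 2 and VS 3. Every LV library was above every VS library, and LV 3 was the highest. The log2 fold change was 1.60 ± 0.36 (SE), with an unadjusted p of 0.00071 and an adjusted p of 0.762 in edgeR's quasi-likelihood test.

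Col1a2 was at 65.1, 51.2 and 99.5 CPM in LV and at 32.3, 33.1 and 31.0 CPM in VS, a log2 fold change of 1.16 ± 0.29. Col1a1 was at 86.4, 64.9 and 159 CPM in LV and at 37.7, 41.7 and 35.9 CPM in VS, a log2 fold change of 1.43 ± 0.39. Again the groups did not overlap and LV 3 was highest. Col6a1 was at 50.8, 45.9 and 72.8 CPM in LV and at 40.3, 31.2 and 28.3 CPM in VS, with a log2 fold change of 0.76 ± 0.22. Col14a1 was at 9.82, 5.03 and 9.63 CPM in LV and at 3.96, 1.40 and 4.01 CPM in VS, with a log2 fold change of 1.38 ± 0.45. Col8a2 was low in both regions, at 2.00, 1.15 and 1.96 CPM in LV and 0.46, 0.00 and 0.04 CPM for the VS libraries, with a log2 fold change of 3.26 ± 0.87. The adjusted p of these 5 chains ran from 0.865 to 0.999 in edgeR's test.

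Counted over the list, 10 of 31 chains were at an unadjusted p under 0.05 for LV against VS, all higher in LV, against 2.91% of all 13542 genes tested. They were the 6 described with Col28a1, Col6a2, Col5a1 and Col6a3. The CPM of 9 chains lay higher in LV with no overlap between the groups and those of 0 chains lower, beside 3.4% and 2.22% of all genes. The median log2 fold change was 0.62 over the 31 chains and 0.00 over all genes tested. By class the medians were 0.84 for 8 fibrillar chains, 0.76 for 3 type VI chains, 0.42 for 6 type IV chains and 0.07 for the multiplexins. Within type IV the abundant chains were at 0.07 ± 0.20 (Col4a1) and 0.03 ± 0.20 (Col4a2), and the higher values were those of the low chains. After adjustment edgeR called 0 of the 31 chains and 0.0% of all genes, and DESeq2 called Col3a1 (adjusted p = 0.00408) and Col8a2 (adjusted p = 0.0348), with 0.133% of all genes.

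The fibroblast markers moved with these chains: all 10 had higher fitted values in LV, 6 of them at an unadjusted p under 0.05 (2.91% of all genes), with a median log2 fold change of 1.11. Their summed CPM ran from 899 to 2003 in LV and from 478 to 807 in VS. The mesothelial gene Upk3b reached 6.26 CPM in LV 1 and 4.60 CPM in LV 3, and no more than 0.189 CPM in the other 10 heart libraries. The part of fibroblast or mesothelial RNA in the collagen values was not tested. Without LV 3 the log2 fold changes were 1.08 for Col3a1, 0.97 for Col1a1 and 0.85 for Col1a2, and 8 of 31 chains were at an unadjusted p under 0.05. Without VS 1 that count was 18 of 32, but the share of all genes rose too, from 2.91% to 23.0%. In that fit the log2 fold changes were 1.61 for Col3a1, 1.16 for Col1a2, 1.40 for Col1a1, 0.91 for Col6a1, 1.59 for Col14a1 and 6.04 for Col8a2, the last against VS libraries near 0 CPM. EdgeR then called Col6a1 (adjusted p = 0.0451) and Col8a2 (adjusted p = 0.0145), beside 1.55% of all genes called higher.

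**Figure D4:**
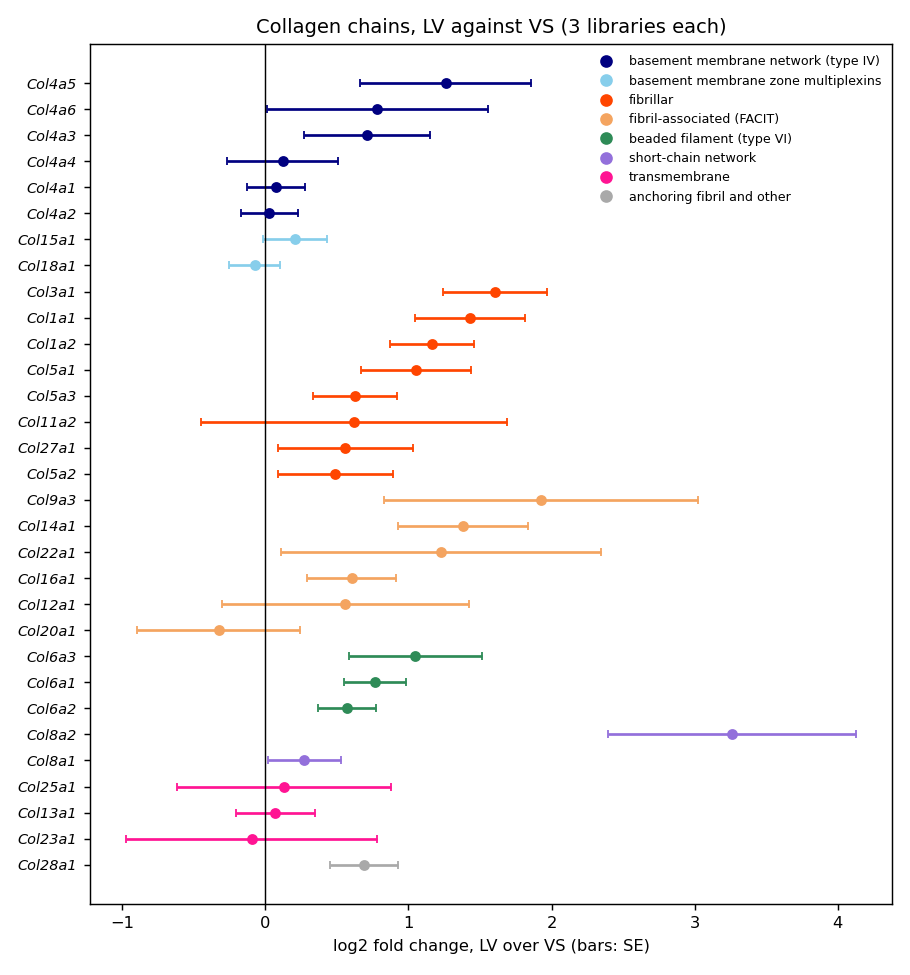
Log2 fold change of the 31 chains between LV and VS (positive is higher in LV), grouped and coloured by class; points are the edgeR estimates and bars their standard errors. All 8 fibrillar and all 3 type VI chains lie to the right of 0, with Col3a1 at 1.60, while Col4a1 and Col4a2 lie at 0.07 and 0.03.

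In Apex against LV the chains with the smallest p were lower in Apex, Col18a1 excepted, and none passed the test after adjustment. The LV libraries are shared with the comparison of LV and VS, so these are not separate observations. Col14a1 was at 4.38, 2.21 and 1.70 CPM in Apex 1, Apex 2 and Apex 3, below all 3 LV libraries, with a log2 fold change of -1.56 ± 0.45 for Apex over LV. Those of the fibrillar chains were -1.07 ± 0.36 for Col3a1, -1.04 ± 0.38 for Col1a1 and -0.80 ± 0.29 for Col1a2. Col11a2, which at 0.07, 0.11 and 0.00 CPM in Apex was hardly detected, was at -3.78 ± 1.33, and Col18a1 was higher in Apex by 0.46 ± 0.18. The adjusted p of these 6 was 0.861 to 0.925 in edgeR's test, and 0.0% of all genes were called. Col14a1 and 3 others (Col1a1, Col11a2 and Col8a2) lay lower in Apex with no overlap and 0 chains higher, beside 8.8% and 7.36% of all genes. All 8 fibrillar chains had lower fitted values in Apex, with a median of -0.64, and all 10 fibroblast markers did too, with a median of -0.62. The 6 smooth muscle markers were lower as well, 4 of them at an unadjusted p under 0.05 (5.38% of all genes), with a median of -0.68. The part of these cells' RNA was not tested. Without LV 3 the log2 fold changes were -0.55 for Col3a1, -0.58 for Col1a1 and -0.49 for Col1a2.

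Against VS and OR, Apex had higher values of Col4a1 and, in part, of Col15a1 and Col18a1, again without a call in edgeR's test. Col4a1 was at 3175, 2854 and 2748 CPM in Apex, at 2207, 2377 and 2126 CPM in VS and at 2536, 2711 and 1641 CPM in OR. All 3 Apex libraries were above all VS and OR libraries, and LV 2, at 2882 CPM, fell inside the Apex range. The log2 fold changes of Apex were 0.39 ± 0.20 over VS and 0.35 ± 0.20 over OR, with adjusted p of 0.672 and 0.495 in edgeR's test. For Col4a2 the groups overlapped, with log2 fold changes of 0.24 ± 0.20 over VS and 0.27 ± 0.20 over OR (adjusted p = 0.751 and 0.601). For Col15a1, at 312, 247 and 254 CPM in Apex and at 242, 173 and 126 CPM in OR, the log2 fold change was 0.59 ± 0.23 (adjusted p = 0.376). For Col18a1 it was 0.39 ± 0.18 over VS, and the Apex values of 111, 113 and 105 CPM stood above those of 101, 69.6 and 81.2 CPM in VS. Summed markers of other cells also separated Apex from OR. Those of cardiomyocytes ran from 1019 to 1272 CPM in Apex and from 1433 to 1935 CPM in OR, those of smooth muscle from 659 to 792 and from 884 to 926 CPM, and those of mesothelium from 80.2 to 119 and from 56.3 to 69.1 CPM. The mesothelial sum was mostly Wt1, with means of 94.3 CPM in Apex and 62.6 CPM in OR. The other mesothelial markers each had means of at most 0.698 CPM (Krt19 in Apex) in these regions. The part of all these cells' RNA in the collagen values was not tested.

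Further chains of these contrasts were Col6a1, with a log2 fold change of 0.63 ± 0.22 for Apex over VS, Col11a2 with -3.16 ± 1.34 for Apex over VS, and Col28a1 with 0.52 ± 0.24 for Apex over OR. Their adjusted p ran from 0.407 to 0.664 in edgeR's test. No overlap was seen for 5 chains higher in Apex than VS (Col4a1, Col5a3, Col9a3, Col18a1, Col28a1) and for 1 lower (Col20a1), beside 6.79% and 3.78% of all genes. It was seen for 6 chains higher in Apex than OR (Col4a1, Col4a4, Col13a1, Col15a1, Col18a1, Col28a1) and for 1 lower (Col20a1), beside 13.3% and 15.6% of all genes, so the share of chains is near the background there. In both contrasts edgeR called 0.0% of all genes. Without VS 1, edgeR called Col18a1 (log2 fold change 0.54), Col6a1 (0.79), Col8a2 (4.59) and Col9a3 (6.26) as higher in Apex than VS. Beside them 4.37% of all genes were called higher, and Col11a2 was at -1.83. VS 2 and VS 3 held 0 and 1 counts of Col8a2 and 0 and 0 of Col9a3. In Apex these chains had 12 to 25 and 9 to 11 counts. In the fit of the 6 Apex and OR libraries alone, Col18a1 was called (log2 fold change 0.36 ± 0.09, adjusted p = 0.0387), beside 3.04% of all genes called higher.

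LV over OR had positive log2 fold changes in Col14a1 (1.44 ± 0.45), Col1a1 (1.14 ± 0.38), Col3a1 (0.98 ± 0.36), Col8a2 (2.14 ± 0.81), Col28a1 (0.73 ± 0.24) and Col13a1 (0.73 ± 0.28), with adjusted p from 0.387 to 0.416 in edgeR's test. Of these, Col14a1, Col8a2, Col28a1 and Col13a1, with Col27a1, did not overlap between the regions, and 0 chains lay lower without overlap, beside 12.8% and 14.6% of all genes. Col3a1 in OR was at 118, 73.2 and 55.4 CPM, so OR 1 exceeded LV 2. OR 1 also had 1774 CPM of fibroblast markers, the second highest of the heart. Without LV 3 the values of Col3a1 and Col1a1 were 0.47 and 0.69. For VS over OR the chains at an unadjusted p under 0.05 were at -0.55 ± 0.22 for Col6a1 and 0.66 ± 0.28 for Col13a1 (adjusted p = 0.699 and 0.705 in edgeR's test). There the CPM of Col13a1 lay higher in VS with no overlap and those of 0 chains lower, beside 4.68% and 6.67% of all genes. Without VS 1 the log2 fold changes were -0.70 for Col6a1 and 0.48 for Col13a1, and 5 of 32 chains were at an unadjusted p under 0.05, beside 11.1% of all genes. In both pairs edgeR called 0.0% of all genes. In the fit of the 6 LV and OR libraries alone Col14a1 (adjusted p = 0.0448) and Col8a2 (adjusted p = 0.0459) were called higher in LV, beside 1.8% of all genes.

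In the test over all 4 regions, edgeR called 0 of 31 chains and 0.0% of all genes. At an unadjusted p under 0.05 were 7 chains (Col3a1, Col14a1, Col1a2, Col8a2, Col1a1, Col28a1 and Col6a1), each with an adjusted p of 0.623, beside 8.0% of all genes. DESeq2 called Col3a1 (adjusted p = 0.00719) and Col8a2 (adjusted p = 0.0378), with 0.642% of all genes. Without VS 1, edgeR called Col14a1 and Col8a2, with 10.8% of all genes. In the 5 pairs other than LV and VS, DESeq2 called 0 chains, beside 0.177% of all genes for Apex and LV, 0.14% for Apex and VS, 0.347% for Apex and OR, 0.362% for LV and OR and 0.17% for VS and OR. Limma's voom with sample quality weights lets single libraries count for less. Over the 4 regions it called 10 chains (Col1a1, Col1a2, Col3a1, Col5a1, Col6a1, Col8a2, Col9a3, Col14a1, Col15a1 and Col18a1), beside 20.5% of all genes. By pair it called Col14a1 for Apex and LV beside 0.244%, 4 chains for Apex and VS beside 13.1%, Col15a1 and Col18a1 for Apex and OR beside 12.8%, and Col14a1 and Col8a2 for LV and OR beside 1.77%. It called 0 chains for LV and VS, beside 0.00738%, and for VS and OR, beside 0.0665%.

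The genes that fold, cleave, cross-link, bind and degrade collagen were also measured in the heart, and none of them was called by edgeR in any of the 6 pairs. Counts and medians are given for 1 pair per list of genes, either LV over VS or Apex over OR. No rule set that choice and the other pairs are not given, so the values are not typical of the 6 pairs by design. Of the folding and modification genes, Serpinh1, the collagen chaperone, stood at a mean of 1288 TPM, with the prolyl isomerase Ppib at 442 TPM, the lysyl hydroxylase Plod1 at 336 TPM and the prolyl hydroxylase subunit P4hb at 309 TPM. For LV over VS the median log2 fold change of the 17 tested was -0.05. Of the 17, 1 was at an unadjusted p under 0.05, beside 2.91% of all genes. Of the genes for propeptide cleavage and cross-linking, Pcolce, an enhancer of procollagen cleavage, stood at 104 TPM, Pxdn, which cross-links type IV collagen, at 70.5 TPM, the procollagen protease Bmp1 at 29.9 TPM and the lysyl oxidase Loxl1 at 10.3 TPM. For LV over VS their median was 0.34 over 14 genes, with 2 at an unadjusted p under 0.05, beside the same 2.91%. The 2 genes were Pcolce2 (log2 fold change 1.71 ± 0.49) and Loxl1 (1.44 ± 0.43), of which Pcolce2 was named after its value was seen.

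Other basement membrane components were led by Sparc, a collagen-binding matricellular protein, at 2533 TPM, followed by the laminin chain Lamb2 at 105 TPM, the perlecan gene Hspg2 at 99.3 TPM and the laminin chain Lama4 at 89.7 TPM. For Apex over OR their median was 0.36 over 15 genes, beside 0.00 over all genes tested, and 5 were at an unadjusted p under 0.05, all higher in Apex, where 12.1% of all genes were at that level in either direction. Of the genes listed as collagen receptors, the integrin chain Itgb1 stood at 379 TPM and the endothelial lectin Cd93 at 261 TPM. The integrin chain Itga1 stood at 73.5 TPM and the receptor kinase Ddr2 at 3.02 TPM. Nothing here shows that Cd93 binds collagen, and the values of that list include it. For Apex over OR the median of the list was 0.38 over 11 genes, with 4 at an unadjusted p under 0.05, all higher in Apex, beside the same 12.1%. Among degrading enzymes and inhibitors the inhibitor Timp3 stood at 524 TPM, Timp4 at 346 TPM, the membrane protease Mmp15 at 206 TPM and Timp2 at 35.4 TPM, with a median of 0.25 for Apex over OR over 10 genes and none at an unadjusted p under 0.05.

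The liver comparison set tdTomato-positive against tdTomato-negative endothelial cells. Of the 43 chains, 26 passed the filter on low counts. The most abundant were Col4a1, with a mean of 165 TPM over the 6 libraries (range 110 to 241), Col13a1 at 153 TPM (46.5 to 230) and Col4a2 at 94.5 TPM (68.4 to 131). Col4a1 was the 1000th most abundant gene of its table. The ratio of Col4a1 to Col4a2 lay between 1.61 and 1.84. Heart and liver were normalised separately and come from different genotypes, so their levels are set side by side only as orders. In the liver the transmembrane Col13a1 stood among the leaders, where in the heart it ranked 15th of the chains, and Col15a1 ranked 20th, where in the heart it was the third. In all 6 liver libraries Col15a1 lay below Col18a1, at 0.111 to 0.263 of its TPM.

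Basement membrane chains took 55.4% ± 1.09 (SD, n = 3) of the collagen TPM in the positive libraries and 58.8% ± 17.2 in the negative ones, the latter at 75.9%, 59.0% and 41.5% in negative 1, negative 2 and negative 3, or 67.5% without negative 3. The transmembrane class took 41.1% ± 1.16 in the positive and 27.0% ± 23.5 in the negative libraries, and fibrillar chains 2.27% ± 0.12 and 8.15% ± 4.91. In negative 1, negative 2 and negative 3 the transmembrane share was 10.1%, 17.1% and 53.8%, and the fibrillar share 8.61%, 12.8% and 3.02%. The 17 liver chains under the filter were Col2a1, Col4a5, Col4a6, Col6a4, Col6a5, Col6a6, Col7a1, Col8a2, Col9a2, Col10a1, Col11a1, Col12a1, Col19a1, Col22a1, Col24a1, Col26a1 and Col28a1, none with more than 15 counts in a library.

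Most chains outside the type IV network were lower in the positive libraries, but none passed the test with all 6 libraries. Col6a3 was at 2.86, 2.39 and 3.47 CPM in positive 1, positive 2 and positive 3, and at 22.2, 35.3 and 5.23 CPM in negative 1, negative 2 and negative 3. The groups did not overlap, and negative 3 was far nearer to the positive libraries than to the others of its group. The log2 fold change was -2.85 ± 0.68, with an adjusted p of 0.276 in edgeR's test. Col18a1 was at 1.85, 2.58 and 5.04 CPM in the positive and 36.3, 19.5 and 4.48 CPM in the negative libraries, with a log2 fold change of -2.67 ± 0.82. Col3a1 was at 3.26, 1.66 and 1.64 CPM in the positive and 11.6, 29.3 and 3.04 CPM in the negative libraries, with a log2 fold change of -2.74 ± 0.84. In both, negative 3 lay inside the positive range.

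Col15a1 (-2.39 ± 0.68), Col1a2 (-2.56 ± 0.74) and the transmembrane Col23a1 (-1.39 ± 0.42) had the same adjusted p of 0.276. Col5a2 was at 23.3, 22.9 and 29.8 CPM in the positive against 148, 139 and 26.3 CPM in the negative libraries. Col8a1 was at 2.86, 3.78 and 6.83 CPM in the positive against 39.1, 69.0 and 5.46 CPM in the negative libraries, and Col14a1 at 8.46, 6.71 and 5.41 against 26.1, 34.9 and 7.18 CPM. In these 3 chains negative 3 lay inside the positive range. Col13a1, an adhesion collagen of the plasma membrane, showed the opposite order, at 364, 373 and 369 CPM in the positive against 90.4, 118 and 419 CPM in the negative libraries. Negative 3 was the highest of all 6. Col27a1, at 10.6, 11.2 and 10.4 against 5.06, 4.30 and 11.1 CPM, and Col4a3, at 3.67, 4.82 and 4.70 against 0.45, 0.49 and 4.64 CPM, were likewise lower in negative 1 and negative 2 than in the positive libraries, with negative 3 inside the positive range. Col17a1, a transmembrane collagen of epithelial hemidesmosomes, was at 18.2, 12.3 and 11.2 against 8.68, 3.23 and 14.9 CPM.

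The abundant type IV chains did not separate the groups. Col4a1 was at 714, 661 and 692 CPM in the positive against 1013, 589 and 437 CPM in the negative libraries, so the negative libraries lay on both sides. The log2 fold change was 0.02 ± 0.30 for Col4a1 and 0.09 ± 0.27 for Col4a2 (adjusted p = 0.986 and 0.906 in edgeR's test).

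**Figure D5:**
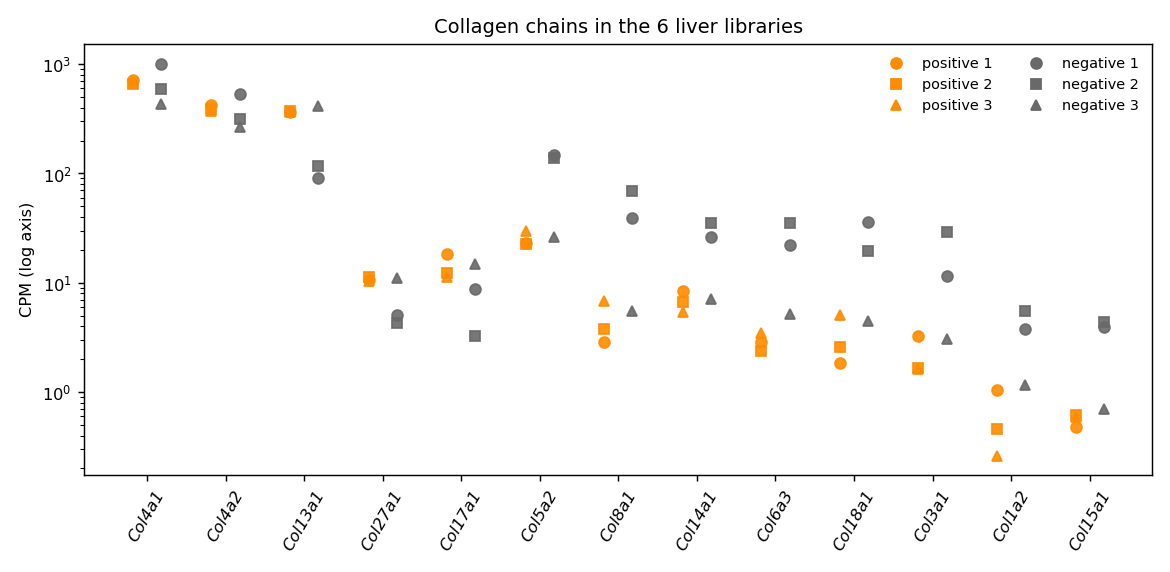
Level of 13 collagen chains in the 6 liver libraries, in CPM on a logarithmic axis; orange points are tdTomato-positive and grey points tdTomato-negative libraries, with circle, square and triangle for replicates 1, 2 and 3. The triangle of negative 3 lies with the positive libraries in most chains, for example at 26.3 CPM for Col5a2 against 148 and 139 CPM in the other negative libraries.

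Over the list, 15 of 26 chains were at an unadjusted p under 0.05, all lower in the positive libraries, beside 14.3% of the 13115 genes tested. By class these were 6 of 8 fibrillar chains (median log2 fold change -2.19), all 3 tested type VI chains (median -2.38), both multiplexins (-2.53), Col8a1, Col14a1 and 2 of 4 transmembrane chains, and none of the 4 type IV chains (0.54). The median over the 26 chains was -1.56, beside 0.00 over all genes tested. EdgeR called 0 of 26 chains and 0.0% of all genes. The CPM of 6 chains (Col1a1, Col1a2, Col6a3, Col15a1, Col23a1 and Col25a1) lay lower in the positive libraries with no overlap and those of 0 chains higher, beside 9.9% and 10.7% of all genes. DESeq2 called 10 chains, all lower, beside 4.45% of all genes called lower, with Col6a3 at an adjusted p of 0.000339 and Col18a1 at 0.00484. Voom with sample quality weights called 18, beside 20.7% of all genes.

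These counts turned on single libraries. Without negative 3, edgeR called 19 of 26 chains, 4 higher and 15 lower, beside 15.4% and 16.1% of all genes. The 4 higher were Col13a1 (log2 fold change 1.81 ± 0.13, adjusted p = 9.7e-05), Col4a3 (3.20 ± 0.34), Col4a4 (1.81 ± 0.33) and Col27a1 (1.19 ± 0.17). Among the lower were Col5a2 (-2.51 ± 0.13, adjusted p = 2.31e-05), Col6a3 (-3.32 ± 0.24), Col14a1 (-2.16 ± 0.21), Col3a1 (-3.24 ± 0.52), Col15a1 (-2.87 ± 0.33), Col1a2 (-2.99 ± 0.51), Col23a1 (-1.69 ± 0.31) and Col18a1 (-3.15 ± 0.49). In that fit 20 of 26 chains and 43.3% of all genes were at an unadjusted p under 0.05. With 2 negative libraries left, that fit rests on few samples, and of the 6 omissions made it is singled out because it changed the calls. Leaving out positive 1, positive 2, positive 3, negative 1 or negative 2 gave 9, 4, 9, 11 and 5 chains at an unadjusted p under 0.05 in place of 15, and the share of all genes at that level was lower too, at 8.01%, 7.25%, 7.43%, 9.72% and 9.34% in place of 14.3%.

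Markers of other cells also differed between the libraries. Summed leukocyte and macrophage markers were at 1470, 1449 and 798 CPM in the positive against 46.2, 111 and 3915 CPM in the negative libraries. Clec4f, a gene of Kupffer cells, was at 643, 625 and 320 against 12.3, 29.0 and 1898 CPM. No marker of that list of 8 was at 0 in any liver library. The 10 fibroblast markers summed to 70.2, 39.4 and 36.0 CPM in the positive and to 111, 247 and 43.4 CPM in the negative libraries, with 6 of them tested and all 6 lower in the positive libraries by fitted value (median -1.52). The 6 hepatocyte markers summed to 223, 197 and 171 against 613, 529 and 177 CPM. Smooth muscle markers summed to 116 to 155 CPM in the positive libraries and to 200, 195 and 125 CPM in negative 1, negative 2 and negative 3. Most of that sum was Smtn, with means of 129 CPM in the positive and 155 CPM in the negative libraries. Its log2 fold change was -0.27 ± 0.19 (adjusted p = 0.544 in edgeR's test). Acta2 and Tagln had means of 0.522 and 0.940 CPM in the positive and 6.77 and 8.42 CPM in the negative libraries. Of single markers, the smooth muscle genes Acta2 and Tagln were at log2 fold changes of -3.69 ± 1.09 and -3.15 ± 0.97. The pericyte and stellate cell gene Pdgfrb was at -2.04 ± 0.64. Each had an adjusted p of 0.276 in edgeR's test. The 10 pericyte and stellate cell markers summed to 105, 86.7 and 87.1 CPM in the positive and to 186, 122 and 73.1 CPM in the negative libraries. Of that list Hgf (0.94 ± 0.33) and Lrat (0.33 ± 0.41) were higher in the positive libraries, and the others tested were lower. In each of these lists negative 3 was nearer to the positive libraries than to negative 1 and negative 2 or lay beyond them. The part of these cells in the collagen values was not tested.

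Among the genes that act on collagen in the liver, none was called by edgeR. The folding genes Ppib, Serpinh1, P4hb and Crtap had means of 570, 387, 363 and 213 TPM, and 4 of 17 tested were at an unadjusted p under 0.05, all lower in the positive libraries (median 0.09). The counts of these lists stand beside 14.3% of all genes at that level in either direction, and some, such as that of the basement membrane components, are near it. Pcolce, Pxdn, Loxl3 and Loxl2 had means of 79.5, 56.3, 25.3 and 11.3 TPM, and in their list 1 of 12 was higher and 3 lower at that level (median -0.17). Pxdn was the higher gene, at 269 ± 16.2 CPM in the positive and 169 ± 49.4 CPM in the negative libraries. Sparc, Nid1, Lama4 and Hspg2 had means of 985, 59.7, 49.4 and 46.8 TPM, with 2 of 12 basement membrane components lower (median -0.16). In the receptor list Itgb1, Cd93, Itga1 and Adgrg6, an adhesion receptor for type IV collagen, had means of 245, 69.2, 61.8 and 13.3 TPM, with 3 of 9 lower (median -0.03). Timp3, Mmp14, Timp2 and Ctsk had means of 411, 127, 92.4 and 20.9 TPM, with 4 of 11 lower (median -0.33).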

How the data were processed

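Per the labels, poly(A) RNA was copied into full-length cDNA from oligo(dT), amplified by PCR and sequenced as paired 100 bp reads. The submitters' processing notes name mm10; the aligner, the counter and the annotation are not given in the sources used here. Per the file headers, the authors deposited a TPM value and an expected count per gene and library. All 36 per-library columns were assigned to libraries, with 0 left over, by name except those headed OZ. These were taken as the region titled OR because the series design text uses OZ in its place and the other names agree.

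Expected counts were rounded and tested with edgeR 4.0.16 in R 4.3.3 (filterByExpr, TMM, robust quasi-likelihood F test, 1 mean per group, all libraries of a tissue), with Benjamini-Hochberg adjustment over all genes at 0.05. Standard errors were derived from each log2 fold change and its F. CPM were scaled by TMM. Shares and orders used TPM. Correlations used log2 CPM with a prior count of 2 and 100000 permutations. DESeq2 1.42.0, limma 3.58.1's voom with sample quality weights, other filters, RLE scaling, the 6 libraries of a pair alone, a replicate block and the omission of each library were alternatives. The edgeR workflow was tested on simulated data. For Apex against LV it recovered 5 of 67 genes changed 1.5-fold, 35 of 67 changed 2-fold and 47 of 66 changed 4-fold. For the liver groups it recovered 1 of 67, 18 of 67 and 51 of 66. A chain that is not called may therefore still differ, above all at small folds. Sequences and coordinates are RefSeq's, GRCm38.p6.

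The members, the classes and the lists of pathway and marker genes were chosen with earlier results of these data known. Folds are given for chains at an unadjusted p under 0.05, at most 6 a pair by smallest p, and levels for the main classes and chains with a group mean of at least 5 CPM; in each list up to 4 genes are named by highest mean TPM where none was called.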

Additional observations from a re-analysis of the deposited data

How the results depend on the processing

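With RLE scaling, without the filter on low counts, with at least 1 CPM in 3 libraries and with a replicate block, 0 chains were called in all 8 comparisons, as in the reported fits. Whether replicate numbers pair the libraries is not settled, since the labels give no animal number. Same-numbered libraries had correlations from -0.06 to 0.23 (heart) or -0.21 to -0.01 (liver). Differently numbered ones had -0.17 to 0.18 (heart) or -0.15 to 0.21 (liver). In the heart 4 of 18 same-numbered pairs exceeded 0.1, beside 3 of 36 others, and in the liver 0 of 3 beside 3 of 6. The block left between 2 and 12 chains at an unadjusted p under 0.05, beside 3.66% to 14.2% of all genes. Voom with sample quality weights called 1 chain for Apex and LV (beside 0.244% of all genes) and 4 for Apex and VS (13.1%). It called 2 for Apex and OR (12.8%) and 2 for LV and OR (1.77%). Over the 4 regions it called 10 (20.5%) and in the liver 18 (20.7%). For Apex and VS and for Apex and OR the share of chains, 12.9% and 6.45%, was not above that of all genes. DESeq2 called 2 for LV and VS (beside 0.133% of all genes), 2 over the 4 regions (0.642%) and 10 in the liver (5.21%). The fits on 6 libraries called 1 for Apex and OR and 2 for LV and OR, beside 7.3% and 3.53% of all genes in either direction. Without VS 1 the share of all genes called was 11.7% for Apex and VS, 4.45% for LV and VS and 10.8% over the 4 regions. Without negative 3 it was 31.5% in the liver. Leaving out single libraries gave 0 to 4 chains for Apex and VS, 0 to 2 for LV and VS and over the 4 regions (all from omitting VS 1) and 0 to 19 in the liver (negative 3). The cause was not tested. Among single folds, 326 of those with a library left out kept direction and side of the threshold and 10 passed it. None of these folds was past the threshold in the reported fits, and many omissions were of libraries outside the pair. The 326 therefore say little about how stable the sizes were. For Col3a1 in Apex over LV the log2 fold change ran from -1.34 to -0.55. Col11a2 for Apex over VS turned to 1.14 with voom. Type IV alone gave a share of 81.4%, 75.2%, 82.2% and 80.5% in Apex, LV, VS and OR, and CPM in place of TPM gave 92.8% in VS, 90.8% in OR and 71.0% in positive liver. With 1 library left out, r ranged from -0.31 to 0.35 for Col4a1 and Col1a2, -0.27 to 0.33 for Col4a1 and fibroblast markers, -0.30 to 0.072 for Col1a2 and Pecam1, 0.58 to 0.84 for Col4a1 and Col15a1 (no longer past the threshold without OR 3) and 0.51 to 0.73 for Col14a1 and fibroblast markers (lost without Apex 1, Apex 2, LV 1, LV 3 or OR 3, and at 0.45 within regions). Chains with a few counts, such as Col11a2 and Col8a2, are limited by depth.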
